A study of Mus musculus with 8 samples.

Results

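The genes described here are MYC, its relatives and the genes of ribosome construction that MYC is known to drive, followed across normal and leukaemic blood-forming cells of the mouse. They were taken from a list of 40 gene symbols. Of these, 37 were measured, among 12393 genes on the arrays. Each gene was read from the brightest of its probe sets, the groups of short probes that an array holds for a transcript, using only probe sets annotated to 1 gene. Dkc1 and Npm3 had no probe set in the annotation table used, and the probe set of Mrto4 was annotated to several genes. The measured members lie on 17 chromosomes, with at most 6 on any 1 of them.

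The study compared 3 groups of C57/BL6 mice labelled as 12 weeks old. LSK cells are bone marrow cells that are Lin-Sca1+Kit+, a fraction rich in stem and early progenitor cells. They were wild type (WT), with the title WT HSC in the labels, and came from mice for which no leukaemia or transplantation is given (3 arrays). WT leukaemia-initiating cells (WT LICs, 3 arrays) were GFP+Lin-Sca1+Kit+ cells sorted 14 days after bone marrow transplantation in a mouse model in which a retrovirus starts chronic myeloid leukaemia (CML). Ezh2 KO LICs (2 arrays) came from the same model and time and lacked Ezh2, the histone methyltransferase of Polycomb repressive complex 2. How the deletion was made, the oncogene of the retrovirus, the number of animals per array and the cells of the host are not stated in the labels. The labels call the arrays of a group biological repeats, and all cells were sorted through 2 passes. Comparisons of either LIC group with LSK cells therefore hold leukaemia, GFP selection, retroviral infection and transplantation together.

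MYC is a transcription factor that pairs with MAX and binds the DNA sequence CACGTG, called the E-box. Its best known targets supply a growing cell with ribosomes: RNA polymerase I and its cofactors make the ribosomal RNA precursor in the nucleolus, small nucleolar ribonucleoproteins (snoRNPs) modify it, and separate assembly factors fold and trim it into the small and the large subunit. Normal stem cells are known for low rates of protein synthesis, and MYC is known to be needed for transformation by BCR-ABL, the oncogene of human CML.

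The start sites of 3 members show what the E-box looks like in this set. The windows below hold the 250 bases upstream of the start site, 5′ to 3′ on the gene's own strand, from RefSeq on GRCm38.p6, with CACGTG in capitals. Odc1 is shown because it was the 1 member to pass the test between WT LICs and LSK cells; its window (chr12:17544623-17544872, + strand) holds no CACGTG. Nme1 and Nop2 are shown as a metabolic and a ribosome assembly gene with a match, which begins 18 bases upstream of the start in Nme1 (chr11:93968273-93968522, − strand) and 60 bases upstream in Nop2 (chr6:125131633-125131882, + strand).
Odc1: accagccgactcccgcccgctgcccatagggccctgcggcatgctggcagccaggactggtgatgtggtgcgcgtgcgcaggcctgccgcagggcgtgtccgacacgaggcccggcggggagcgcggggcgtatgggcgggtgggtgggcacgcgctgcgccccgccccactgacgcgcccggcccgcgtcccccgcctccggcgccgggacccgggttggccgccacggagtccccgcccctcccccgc
Nme1: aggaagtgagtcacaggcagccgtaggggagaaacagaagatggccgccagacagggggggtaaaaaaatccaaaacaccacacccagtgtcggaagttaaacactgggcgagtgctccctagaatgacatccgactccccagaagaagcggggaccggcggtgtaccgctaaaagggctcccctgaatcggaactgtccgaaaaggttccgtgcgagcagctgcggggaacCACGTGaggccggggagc
Nop2: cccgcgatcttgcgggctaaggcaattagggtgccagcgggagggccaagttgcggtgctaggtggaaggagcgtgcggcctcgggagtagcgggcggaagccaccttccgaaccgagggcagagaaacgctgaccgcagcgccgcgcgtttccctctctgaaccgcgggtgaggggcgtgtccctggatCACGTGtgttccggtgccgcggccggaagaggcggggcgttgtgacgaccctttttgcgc
The Odc1 window was the richest of the 3 in G and C (80.0%, with 35 CpG), against 67.6% and 30 CpG in Nop2 and 58.8% and 16 CpG in Nme1. Over windows from 250 bases before to 50 bases after the start, 7 of the 31 measured members with a RefSeq entry held CACGTG (22.6%): Max, Nme1, Nop2, Imp4, Pes1, Wdr43 and Utp20. The motif reads the same on both strands and was the 1 motif searched. It stood in 8.09% of all 27025 genes with an entry and in 10.8% of the 9887 that were also on the arrays. A match describes letters only, and binding was not measured.

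All values below are log2 intensities, in which a difference of 1 is a doubling. The medians of the arrays lay between 7.11 and 7.32, and each value is relative to the other transcripts of its array. A change in total RNA per cell was not measured. In sorted bulk cells, fewer cells of a type and less RNA per cell cannot be told apart. The group means of the members ran from 7.26 to 13.03, all of them above 4.01, the highest mean among 27 bacterial control probe sets that were not spiked in, and brightness was not compared between genes. Ezh2 was 4.29-fold lower in Ezh2 KO than in WT LICs (log2 difference -2.10, SE 0.21, adjusted p 0.00985 in limma). Of the stem and progenitor markers, Kit (9.69 to 11.05) and Cd34 (11.62 to 12.31) were bright on every array, but Kit was called lower in WT LICs than LSK cells (-1.19, adjusted p 0.00886); the probe set of Mecom lay under 4.01 on all 8, and Ly6a, which encodes Sca1, was not measured. WT LIC replicate 3 stood apart from the other WT LIC arrays: the erythroid markers Klf1 (4.89 against 10.78 and 9.81) and Epor (5.16 against 8.51 and 7.81) were lower, the lymphoid gene Dntt was higher (12.14 against 9.89 and 9.58), and Xist was at 4.35 against 10.68 and 11.06. The B lineage markers as a list, which holds Dntt, did not set it apart. Their median deviation from each gene's mean over all arrays was -0.75 in replicate 3, between -0.61 in replicate 1 and -2.00 in replicate 2. The Y-linked Eif2s3y lay between 1.29 and 1.63 in LSK cells and between 9.21 and 9.80 in both LIC groups, so the sex of the cells and the step from LSK cells to LICs cannot be told apart. WT LIC replicates 1 and 2 thus read high for both Xist and Eif2s3y. On average the Ezh2 KO LICs did too: their mean Xist was 2.24 above that of WT LICs, a mean that includes replicate 3. Whether any of these arrays held cells of both sexes was not tested. The p-values measure the spread between these few arrays.

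Most ribosome biogenesis genes had higher means in WT LICs than LSK cells did, by moderate amounts, while Myc itself did not. Of the 37 members, 35 had a higher mean in WT LICs (94.6%, against 52.2% of all genes) and 2, Myc and Tfb2m, a lower one (against 47.8%), and the median log2 difference was 0.36 against 0.02 over all genes. In 22 members (59.5%) every WT LIC array lay above every LSK array, which held for 13.5% of all genes, and in no member did every WT LIC array lie below. With adjusted p under 0.05 in limma over all 12393 genes, 1 member was called higher, Odc1, and none lower. Over all genes, 1.27% were called higher and 2.15% lower, 3.42% in either direction. At an unadjusted p under 0.05, 18 members were higher and none lower, against 9.33% and 11.2% of all genes. Without WT LIC replicate 3 the count of members with separate arrays was 28 and the median was 0.37, and without WT LIC replicate 1 they were 25 and 0.29. With an array left out, arrays separate more easily for any gene, so these counts cannot be set against the 13.5%.

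**Figure D1:**
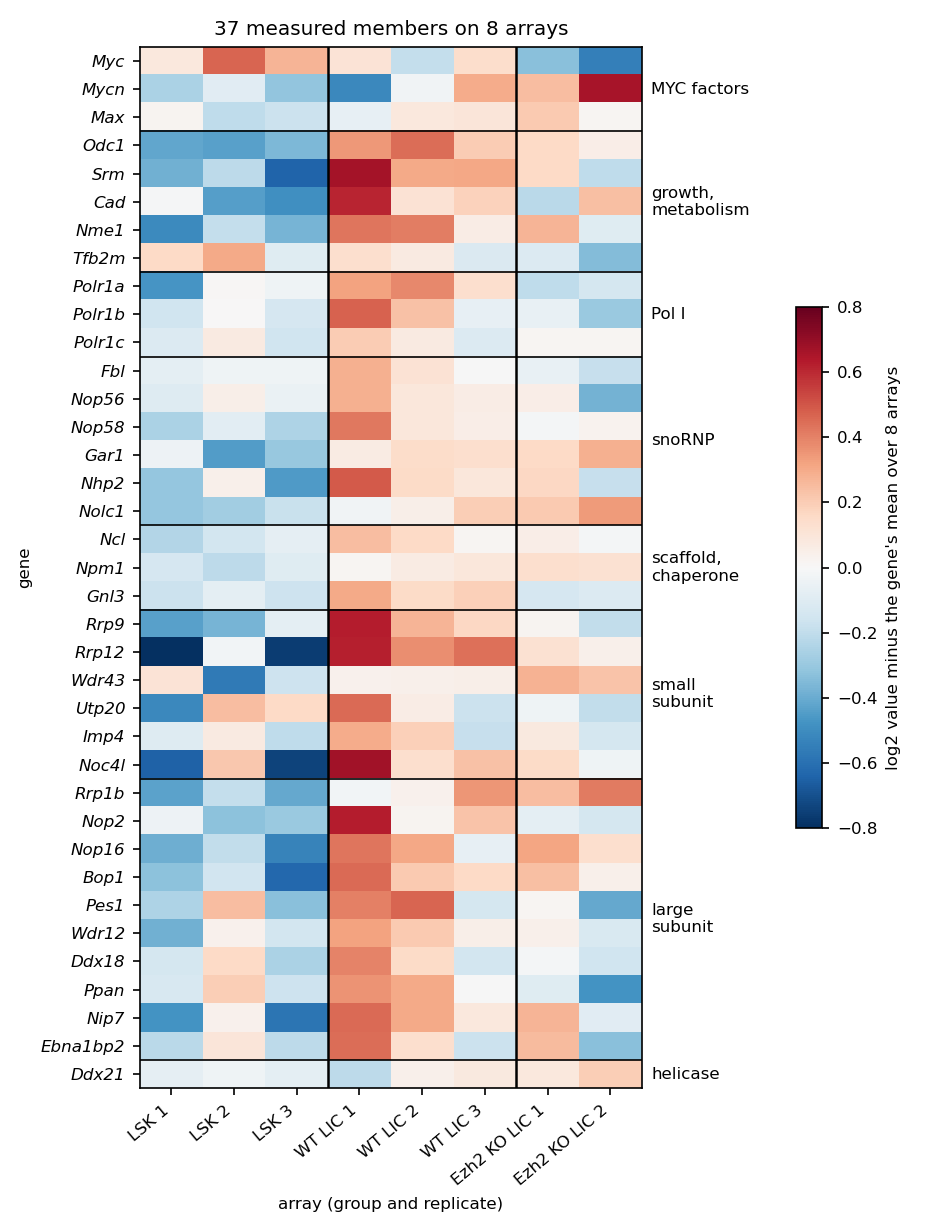
Log2 intensity of each of the 37 measured members on each of the 8 arrays, minus that gene's mean over the arrays (red above, blue below; colours end at 0.8 either way), with genes grouped by role. The LSK columns are mostly blue, WT LIC replicate 1 is mostly red, and Myc runs the other way, red in LSK cells and blue in Ezh2 KO LICs.

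Myc was measured by 1 probe set and read 10.71, 11.10 and 10.90 in LSK cells, 10.73, 10.44 and 10.77 in WT LICs, and 10.29 and 10.08 in Ezh2 KO LICs. The WT LIC arrays overlapped the LSK arrays, and both Ezh2 KO LIC arrays lay below all others. The difference between WT LICs and LSK cells was -0.25 (SE 0.17, adjusted p 0.440). Mycn, the paralogue named for neuroblastoma that is also used by blood stem cells, read 10.46, 10.62 and 10.40 in LSK cells, 10.20, 10.69 and 11.01 in WT LICs, and 10.96 and 11.37 in Ezh2 KO LICs by its brightest probe set. Its WT LIC arrays spread on both sides of the LSK arrays (difference 0.14, SE 0.23, adjusted p 0.793), and without WT LIC replicate 3 the difference was -0.05. Max, the partner that both need to bind DNA, lay between 10.20 and 10.61 on all 8 arrays, with overlapping groups (difference 0.16, SE 0.14, adjusted p 0.569).

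The genes of growth metabolism held the called member, Odc1, and with Srm the largest difference after that of Rrp12. Odc1, ornithine decarboxylase, makes the first polyamine and is a long-known MYC target. It read 11.14, 11.13 and 11.20 in LSK cells, 11.91, 12.01 and 11.77 in WT LICs, and 11.72 and 11.62 in Ezh2 KO LICs. All LIC arrays lay above all LSK arrays. Odc1 rose 1.66-fold from LSK cells to WT LICs (log2 difference 0.73, SE 0.13, adjusted p 0.0292). The call was lost when single arrays were left out: the adjusted p was 0.0850, 0.0767 and 0.0794 without LSK replicate 1, 2 or 3, and 0.0902 and 0.104 without WT LIC replicate 1 or 2, with differences between 0.68 and 0.76.

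Srm, spermidine synthase, acts one step after Odc1 in the polyamine pathway. It read 10.31, 10.48 and 10.06 in LSK cells, 11.36, 10.99 and 11.01 in WT LICs, and 10.86 and 10.49 in Ezh2 KO LICs. The WT LIC arrays all lay above the LSK arrays, and the difference of 0.84 (SE 0.19) had an adjusted p of 0.0577. Nme1, a nucleoside diphosphate kinase, read 11.00, 11.32 and 11.14 in LSK cells against 11.94, 11.92 and 11.57 in WT LICs, without overlap (difference 0.66, SE 0.18, adjusted p 0.0919). Cad, the enzyme that opens pyrimidine synthesis, was higher on every WT LIC array (9.69 to 10.18) than on any LSK array (9.08 to 9.56), with an adjusted p of 0.169. Tfb2m, which starts transcription in mitochondria, was the exception in this group: its LSK arrays read 9.31, 9.45 and 9.05 and its WT LIC arrays 9.28, 9.22 and 9.03 (difference -0.09, SE 0.16, adjusted p 0.810). The sign of that small difference turned to 0.02 after centring each array on its median.

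The nucleolar genes were separated most evenly. All 6 measured snoRNP genes and all 3 scaffold and chaperone genes had every WT LIC array above every LSK array, although none was called. Among the snoRNP genes the differences ran from 0.18 for Fbl, the methyltransferase of box C/D particles, and Nop56, one of its partners, to 0.49 for Nhp2, a core protein of box H/ACA particles. Nop58 (0.38), Gar1 (0.38) and Nolc1, a snoRNP chaperone (0.33), lay between them. Fbl shows how narrow the bands were: 12.32, 12.36 and 12.36 in LSK cells and 12.68, 12.51 and 12.39 in WT LICs. The scaffold proteins nucleolin (Ncl, 0.29) and nucleophosmin (Npm1, 0.21) and the GTPase nucleostemin (Gnl3, 0.36) differed by similar amounts. The RNA polymerase I subunits were less uniform. Polr1a, the largest subunit, read 7.88, 8.37 and 8.32 in LSK cells and 8.68, 8.74 and 8.49 in WT LICs, without overlap (difference 0.45, SE 0.17, adjusted p 0.197), whereas the arrays of Polr1b and of Polr1c, a subunit shared with RNA polymerase III, overlapped.

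Among the 6 small-subunit factors all means were higher in WT LICs and 2 had separate arrays, Rrp12 and Rrp9. Rrp12, needed to carry the small-subunit precursor out of the nucleus, had the largest difference of all members. It read 6.97, 7.76 and 7.03 in LSK cells, 8.41, 8.16 and 8.23 in WT LICs, and 7.91 and 7.83 in Ezh2 KO LICs. LSK replicate 2 lay well above the other LSK arrays but below every LIC array. The difference was 1.01 (SE 0.23, adjusted p 0.0577), and without LSK replicate 2 it was 1.26, which was called (adjusted p 0.0177). Rrp9, a protein of the U3 snoRNP, read 7.69, 7.75 and 8.05 in LSK cells and 8.75, 8.40 and 8.29 in WT LICs (difference 0.65, SE 0.18, adjusted p 0.0964). Noc4l differed by 0.74 with overlapping arrays, since its LSK arrays read 9.04, 9.91 and 8.95. Wdr43, Imp4 and Utp20, which work in early small-subunit complexes, differed by 0.25, 0.18 and 0.15, also with overlap.

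Of the 10 large-subunit factors all means were higher in WT LICs and 6 had separate arrays: Rrp1b, Nop2, Nop16, Bop1, Wdr12 and Nip7. Bop1 read 8.81, 8.98 and 8.51 in LSK cells, 9.59, 9.34 and 9.29 in WT LICs, and 9.37 and 9.17 in Ezh2 KO LICs. All LIC arrays lay above the LSK arrays, and the difference between WT LICs and LSK cells was 0.64 (SE 0.17, adjusted p 0.0906). Bop1 works in the PeBoW complex with Pes1 and Wdr12, which differed by 0.36 each. The Pes1 arrays overlapped (9.67, 10.16 and 9.58 against 10.32, 10.38 and 9.78). Nip7 (0.62), Nop16 (0.60), Nop2 (0.52), an rRNA methyltransferase, and Rrp1b (0.47) had the larger differences. A second probe set of Nip7 and of Nop16 did not show the rise (-0.03 and -0.05). Ppan (0.25), Ebna1bp2 (0.24) and the helicase Ddx18 (0.21) had the smallest of this group. Ddx21, a helicase of rRNA transcription and processing, differed by 0.03 by its brightest probe set. Its other probe set differed by 0.88 (adjusted p 0.165 in limma on single probe sets).

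**Figure D2:**
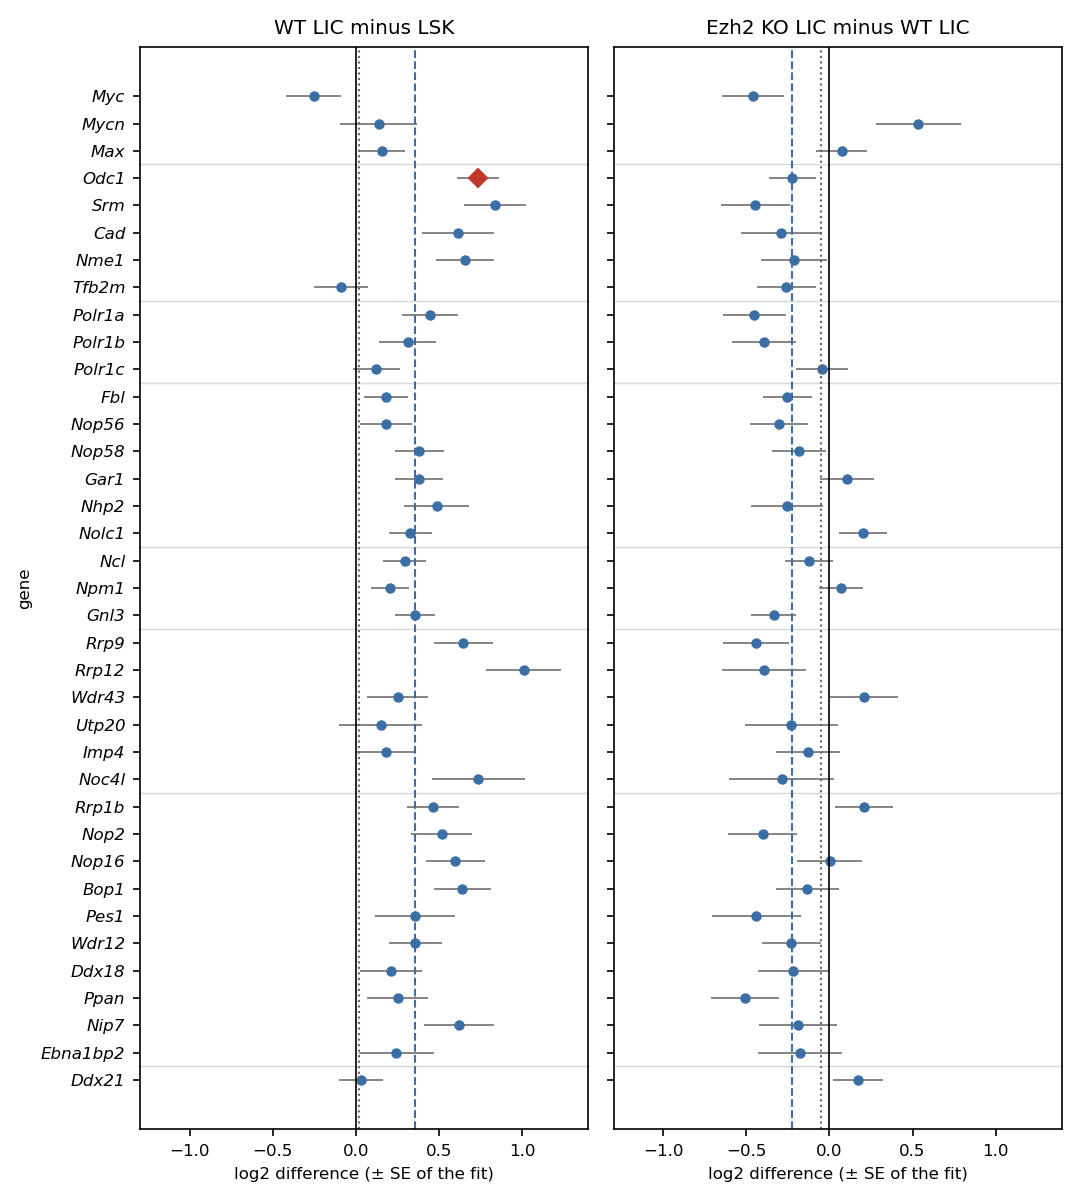
Log2 difference of each member, with bars of ± 1 SE of the limma fit, between WT LICs and LSK cells (left) and between Ezh2 KO and WT LICs (right). The dashed line is the median of the members (0.36 and -0.22), the dotted line that of all genes (0.02 and -0.05), and the red diamond marks Odc1, the 1 called gene. Most points lie right of 0 on the left and left of 0 on the right. Both panels use the WT LIC arrays.

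Loss of Ezh2 was followed by no called member. Of the 37 members, none was called higher and none lower in Ezh2 KO against WT LICs in limma, where 0.589% of all genes were called higher and 0.0484% lower, 0.637% or 79 genes in all. The mean was lower in 28 members (75.7%, against 56.7% of all genes) and higher in 9 (against 43.3%), with a median difference of -0.22 against -0.05 over all genes. At an unadjusted p under 0.05, 4 members were lower (Myc, Polr1a, Gnl3 and Ppan) and none higher, against 4.97% and 6.16% of all genes. Both Ezh2 KO LIC arrays lay below all WT LIC arrays in 13 members (35.1%, against 16.6% of all genes) and above them in 5, against 13.2%. The first count was 23 without WT LIC replicate 3 and 25 without Ezh2 KO LIC replicate 1. Fewer arrays separate more easily for any gene, so these 2 counts cannot be set against the 16.6%. The median was -0.13 without WT LIC replicate 1, in which most members were at their highest, and -0.14 without Ezh2 KO LIC replicate 2. This comparison and that with LSK cells share the WT LIC arrays.

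Ppan, a large-subunit factor, had the lowest difference of the knockout comparison. It read 10.22, 10.16 and 9.86 in WT LICs and 9.76 and 9.38 in Ezh2 KO LICs, with 9.73, 10.06 and 9.69 in LSK cells. The Ezh2 KO LIC arrays lay below the WT LIC arrays and within or below the LSK range (difference -0.51, SE 0.20, adjusted p 0.418). Myc was lower by a similar amount (-0.46, SE 0.18, adjusted p 0.418). Polr1a read 8.15 and 8.21 in Ezh2 KO LICs, below all its WT LIC arrays and inside the LSK range (difference -0.45, SE 0.19, adjusted p 0.441). Gnl3 read 12.22, 12.06 and 12.10 in WT LICs against 11.78 and 11.80 in Ezh2 KO LICs, and the latter fell inside the LSK range of 11.74 to 11.83 (difference -0.34, SE 0.13, adjusted p 0.413). Srm (-0.45, adjusted p 0.477) and Rrp9 (-0.44, adjusted p 0.469) were also lower on both Ezh2 KO LIC arrays than on any WT LIC array. Mycn had the highest difference, 0.54 (SE 0.26, adjusted p 0.489), with its 10.96 in Ezh2 KO LIC replicate 1 just below the 11.01 of WT LIC replicate 3. Wdr43 was higher on both Ezh2 KO LIC arrays (11.99 and 11.94) than on the WT LIC arrays (11.75, 11.75 and 11.76), with a difference of 0.21 (SE 0.20, adjusted p 0.736), and Max differed by 0.07 (adjusted p 0.895).

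Against LSK cells the Ezh2 KO LICs had smaller differences than the WT LICs in most members, and again no member was called in limma, where 1.61% of all genes were called higher and 1.86% lower, 3.47% in either direction. The mean was higher in 27 members and lower in 10, against 47.2% and 52.8% of all genes, with a median of 0.20 against -0.02 over all genes. At an unadjusted p under 0.05, 8 members were higher and 1 lower, against 8.84% and 10.4% of all genes. Both Ezh2 KO LIC arrays lay above all LSK arrays in 15 members and below them in 2, Myc and Tfb2m, against 18.2% and 20.5% of all genes. The count of 15 became 23 without Ezh2 KO LIC replicate 2, and the count of 2 became 8 without Ezh2 KO LIC replicate 1 and 5 without LSK replicate 1. Since any gene separates more easily on fewer arrays, these counts cannot be set against the 18.2% and 20.5%. Myc had the lowest difference, 1.64-fold lower in Ezh2 KO LICs (-0.71, SE 0.18, adjusted p 0.0844). Nolc1 read 10.98, 11.01 and 11.11 in LSK cells and 11.50 and 11.62 in Ezh2 KO LICs, without overlap (difference 0.53, SE 0.14, adjusted p 0.0953). Rrp1b read 10.79, 11.02 and 10.80 against 11.46 and 11.63 (difference 0.67, SE 0.17, adjusted p 0.0860). Odc1 stayed above LSK cells on both arrays (difference 0.51, SE 0.14, adjusted p 0.102). Gar1 (0.49, adjusted p 0.159), Nop16 (0.60, adjusted p 0.151) and Mycn (0.67, adjusted p 0.208) were likewise above all LSK arrays, and Tfb2m differed by -0.35 (adjusted p 0.348).

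Several members were read by more than 1 probe set, and these did not always give the same answer. The 37 members had 69 probe sets, with 23 members read by several. Of the 32 probe sets that were not the brightest, 26 had a higher and 6 a lower mean in WT LICs relative to LSK cells, with a median of 0.43, and 18 differed by more than the brightest probe set of their gene. The 18 included probe sets of Nolc1 (1.25 and 0.80 against 0.33), Ddx21 (0.88 against 0.03) and Wdr43 (0.69 against 0.25). The 6 lower ones were of Polr1a (-0.32), Pes1 (-0.25), Mycn (-0.14), Wdr12 (-0.10), Nop16 (-0.05) and Nip7 (-0.03). In LSK cells those of Nop16 (8.81 against 8.55) and Nip7 (10.65 against 10.53) were no dimmer than the probe set used. A further Polr1a probe set differed by 0.05. When each of 20380 probe sets was tested on its own in limma, a count added after the data were seen, 4 members had a probe set called higher in WT LICs, Odc1, Mycn, Noc4l and Rrp1b, and no probe set of a member was called lower. Of all probe sets, 0.986% were called higher and 1.69% lower. Between Ezh2 KO and WT LICs no probe set of a member was called, against 0.476% higher and 0.0343% lower of all, and in Ezh2 KO LICs against LSK cells 1 was called higher, of Mycn, against 1.39% higher and 1.47% lower. One Rrp1b probe set (1452118_at) read 7.99, 7.86 and 7.92 in LSK cells and 8.95, 8.89 and 8.85 in WT LICs (difference 0.98, SE 0.13, adjusted p 0.0153). One Noc4l probe set (1438095_x_at) read 8.96, 9.24 and 8.54 against 10.12, 9.82 and 10.09 (difference 1.10, SE 0.20, adjusted p 0.0410).

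Mycn had the widest disagreement, and it is described because of its values. Its probe set 1425923_at read 3.43, 3.88 and 3.59 in LSK cells, all under the level of the control probe sets (4.01), but 9.59, 10.11 and 9.34 in WT LICs and 8.78 and 9.55 in Ezh2 KO LICs. All 5 LIC arrays lay far above all LSK arrays. Against 4.01, WT LICs were at least 50.8-fold brighter (adjusted p 0.000174) and Ezh2 KO LICs at least 35.7-fold brighter. The other probe sets of Mycn showed no such step between LSK cells and WT LICs: the brightest, 1417155_at, differed by 0.14 and 1425922_a_at by -0.14. Which part of the transcript each probe set reads was not examined, and the cause of the disagreement was not tested. In the knockout comparison, 26 of the 32 probe sets that were not the brightest were lower in Ezh2 KO than in WT LICs and 6 were higher. Members that ran against the rest by their brightest probe set mostly did not by others: of 9 members higher in Ezh2 KO LICs by their brightest probe set, 7 had others, and 8 of these 10 other probe sets were lower. Among them were Nolc1, Rrp1b, Wdr43 and Ddx21.

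**Figure D3:**
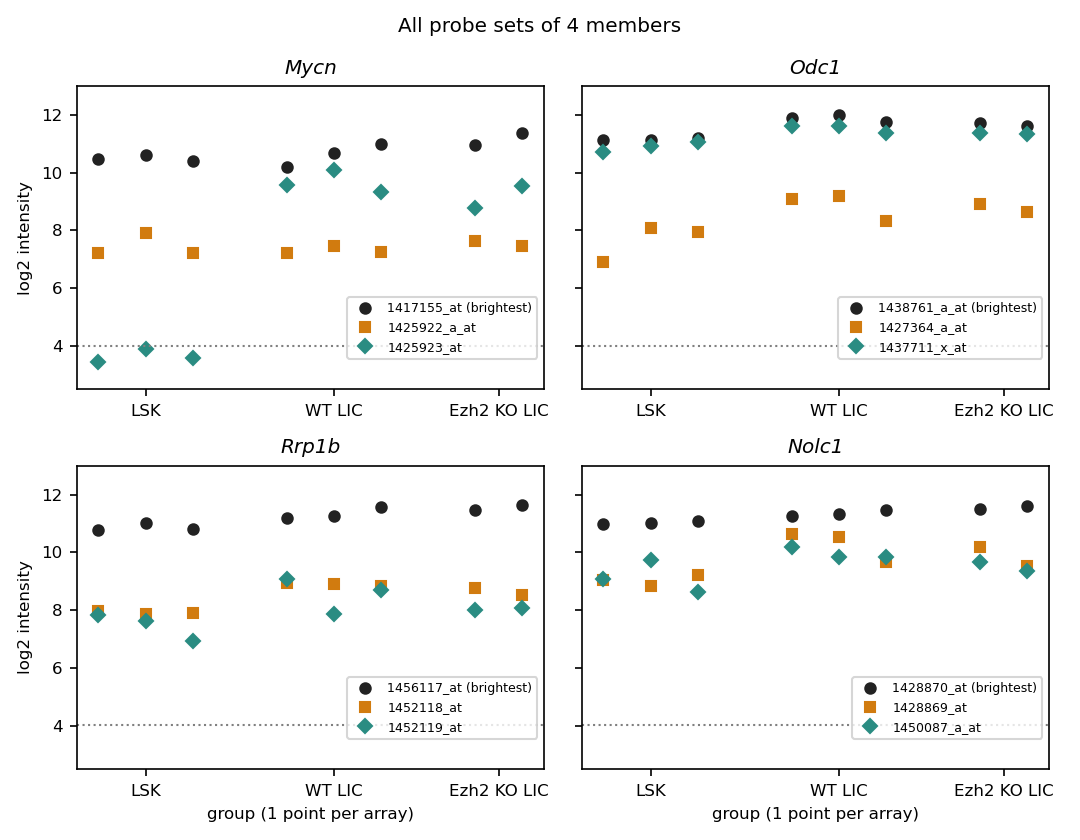
Log2 intensity of every probe set of Mycn, Odc1, Rrp1b and Nolc1, with 1 point per array and the dotted line at 4.01, the level of unspiked control probe sets. The 3 probe sets of Odc1 are higher in both LIC groups on average, whereas for Mycn the probe set 1425923_at moves from below the dotted line in LSK cells to 8.78 or more in all LICs and the other probe sets do not.

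The members as a set stood at different levels on arrays of the same group. For each array the median of the members' deviations from their own means was taken. It was -0.24, -0.03 and -0.21 in LSK cells, 0.34, 0.15 and 0.09 in WT LICs, and 0.08 and -0.10 in Ezh2 KO LICs, with an SD of 0.123 between repeats. WT LIC replicate 1 was the highest of all arrays for 24 of the 37 members, and no member was highest in WT LIC replicate 3. The 37 other small-subunit and snoRNP genes of a wider list gave nearly the same values (0.32, 0.16 and 0.04 in WT LICs). The erythroid markers were at 1.505 and 1.349 in WT LIC replicates 1 and 2 and at -0.996 in replicate 3, and the granulocyte markers at 0.81, 1.01 and -0.40. Their part in the members' values was not tested. In Ezh2 KO LICs the erythroid markers were at -0.42 and -0.68 and the granulocyte markers at 0.27 and -0.90. All 8 erythroid markers had lower means in Ezh2 KO than in WT LICs (median -1.22). Of 10 granulocyte markers 9 were lower and 1 higher (median -0.49), and no marker of either list was called. The B lineage markers were at 3.22 and 2.33 in Ezh2 KO LICs, with 5 of 11 called higher than in WT LICs while the defining marker Pax5 stayed under 4.01 on all arrays. The part of these 3 lists in the knockout comparison was not tested. The antibody-secreting cell marker Jchain was at 10.89 in LSK cells and at 5.12 in WT LICs, and its part was not tested either. Stem and progenitor markers ran opposite to the members. All 10 measured had lower means in WT LICs than LSK cells did (median -1.07), though Mecom, under 4.01 on all arrays, was among them. Arrays were separate in 8, against 13.2% of all genes, and 2 were called lower, Kit and Hlf. The same 10 markers were also lower in Ezh2 KO LICs than in LSK cells (median -0.74). There, arrays were separate in 9, against 20.5% of all genes, and Kit was called. Their median deviation was 0.43, 0.59 and 0.57 in LSK cells, -0.59, -0.27 and -0.59 in WT LICs, and -0.36 and 0.06 in Ezh2 KO LICs. Of 7 megakaryocyte markers 3 were called lower in WT LICs (median -1.43), and of 8 monocyte markers 2 (median -1.50). The part of these lists in the members' values was not tested. Mitosis genes stood at -0.59, -0.53 and -0.37 in LSK cells and between 0.20 and 0.33 in all 5 LIC arrays, so that they separated both LIC groups from LSK cells by more than the ribosome genes did.

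**Figure D4:**
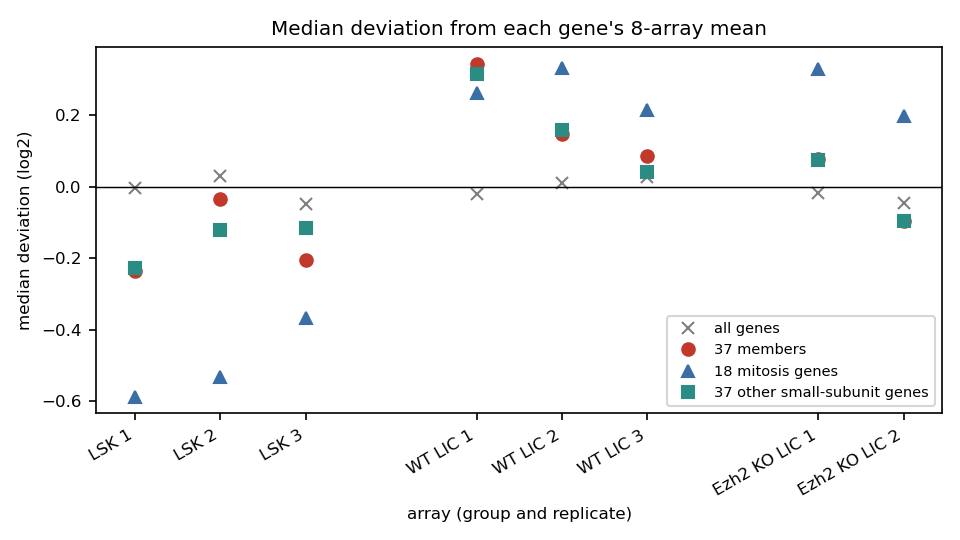
Median deviation (log2) from each gene's mean over the 8 arrays, for the 37 members, 37 other small-subunit and snoRNP genes, 18 mitosis genes and all 12393 genes, 1 point per array and set. The members lie lowest in LSK replicates 1 and 3 and highest in WT LIC replicate 1, with Ezh2 KO LIC replicate 2 below 0, while the mitosis genes stay above 0 in every LIC array.

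The lists of other ribosome assembly, exosome and nucleotide synthesis genes gave similar, mostly uncalled differences between WT LICs and LSK cells. Not all other lists did. Of the 37 other small-subunit and snoRNP genes, 3 were called higher and none lower, with a median of 0.32: Tbl3 (0.99, adjusted p 0.0186) and Utp18 (1.33, adjusted p 0.0493), both of the small-subunit processome, and Pno1 (1.13, adjusted p 0.0371), a late assembly factor. None of 36 other large-subunit genes was called (median 0.31), with 10 higher and none lower at an unadjusted p under 0.05. None of 10 exosome genes (median 0.37; 2 higher and 1 lower at an unadjusted p under 0.05) and none of 9 further genes of RNA polymerase I transcription (median 0.08; none in either direction) was called. Of 11 nucleotide synthesis genes (median 0.41) 1 was called higher, Uck2, a uridine-cytidine kinase (0.95, adjusted p 0.0366). Of 5 other polyamine genes none was called, but 4 had lower means in WT LICs (median -0.29). Sat1, which acetylates polyamines for export, differed by -0.84 (adjusted p 0.0601). None of 5 other genes of mitochondrial transcription (median 0.22) and none of 4 genes linking nucleolar stress to p53 (median -0.10) was called. Of 18 mitosis genes, 7 were called higher.

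Genes around MYC that are not ribosomal also held calls. Of 25 further genes reported as induced by MYC, 4 were called higher in WT LICs relative to LSK cells and none lower: Bcat1, a transaminase of branched-chain amino acids (3.62, adjusted p 0.0218), Mthfd2 (1.65, adjusted p 0.0263) and Shmt2 (0.68, adjusted p 0.0361), both of mitochondrial one-carbon metabolism, and Slc7a5, an amino acid transporter (1.04, adjusted p 0.0208). The same 4 were called higher in Ezh2 KO LICs against LSK cells. Of 17 MYC partners and regulators, 2 were called lower in WT LICs and none higher. These were Mxd4 (-1.40, adjusted p 0.00886), which competes with MYC for MAX, and Mga (-1.01, adjusted p 0.0330), another MAX partner. Mxd4 read 10.45 to 10.76 in LSK cells and 8.98 to 9.45 on all LIC arrays, without overlap. Of 6 genes reported as repressed by MYC, 3 were called lower, Cdkn1b (-1.46), Ndrg1 (-1.62) and Txnip (-1.27), and 1 higher, Cdkn1a (2.49, adjusted p 0.00979). Between Ezh2 KO and WT LICs no gene of any of these lists was called; the largest difference was that of Cdkn2a, which encodes Arf, an activator of p53 (3.96, SE 0.69, adjusted p 0.0707). Against LSK cells Cdkn2a was called higher in Ezh2 KO LICs (4.99, adjusted p 0.0157), as were Skp2, a ubiquitin ligase subunit that acts on MYC (1.35, adjusted p 0.0343), and Prps1 (0.86, adjusted p 0.0442). Mxd4 was again called lower in limma (-1.37, adjusted p 0.0149). Of the 6 genes reported as repressed by MYC, 1 was called higher and 1 lower.

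Members with and without an E-box had overlapping ranges of differences. The 7 measured members with CACGTG near the start had a median difference of 0.25 between WT LICs and LSK cells, from 0.15 in Utp20 to 0.66 in Nme1. The 24 with an entry and no match had a median of 0.36, from -0.09 in Tfb2m to 0.74 in Noc4l. In the knockout comparison the medians were -0.21 with and -0.22 without a match. No test was made on these subsets, and the absence of the letters says nothing about MYC at these genes.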

How the data were processed

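Expression was measured on Affymetrix 3′ arrays after single-primer amplification of total RNA, per the labels' protocols. RMA is the tool named, without a version, per the submitters' processing notes; further steps and a genome build are not given in these sources. The deposited values are linear intensity values of 22690 probe sets on 8 arrays, whereas log2 values had been assumed when the tests were set. They were turned into log2 with no pseudocount, and the test stayed the same. The 64 control probe sets were left out; 20380 probe sets had 1 symbol, 691 had several and 1555 were not listed. Each of 12393 genes was read from the brightest of its probe sets (mean over all arrays), with no filter on dim genes.

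One limma fit held all 3 groups: limma 3.58.1 (R 4.3.3; lmFit, eBayes) with group as the only term and 5 residual degrees of freedom. Tests were 2-sided, with Benjamini-Hochberg adjusted p under 0.05 over all genes. The fit was tested on simulated data. The number of arrays limits the precision, and no scan date is given, so batch and group cannot be told apart. Myc, Mycn, Max, every called member and, per comparison, the 6 members of smallest p and the 2 highest and 2 lowest differences were named in full; from other lists, called genes and at most 2 others. The members and all gene lists were chosen with earlier results of these data known. Alternatives were 3 other normalizations (cyclic loess, quantile, median centring), dropping dim genes, weighting the arrays, a robust prior with a trend, fitting 2 groups at a time, a block for the replicate number, other choices of probe set and each array left out. Counts of members whose arrays do not overlap, counts for the other gene lists under each alternative, and tests of single probe sets were added after the data were seen. Promoter windows are from RefSeq (GRCm38.p6), with entries for 31 of 37 measured members. Plots were drawn with matplotlib 3.10.9.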

Additional observations from a re-analysis of the deposited data

How the results depend on the processing

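With 2 or 3 arrays per group, counts of calls moved with most settings, and which settings shift them was not traced further. Of 504 values of named members under alternatives, 468 kept their direction and their side of the threshold, 7 lost a call (all Odc1), 22 gained one and 7 changed sign. The sign changes were in WT LICs against LSK cells, Tfb2m at 0.020 after median centring and 0.0021 without LSK replicate 2 (-0.20 to 0.0021 with an array left out) and Mycn at -0.052 without WT LIC replicate 3 (-0.052 to 0.35), and in the knockout comparison Wdr43 at -0.13 with the mean of probe sets and -0.48 with the probe set of largest interquartile range, Mycn at -0.51 with that probe set, and Max at -0.025 without Ezh2 KO LIC replicate 1 (-0.025 to 0.17). For WT LICs against LSK cells, the members called numbered 3 above the 40th percentile of brightness, 3 after median centring, 2 after quantile normalization, 4 with a trended robust prior, 6 with array weights, 6 with the mean of probe sets, 3 with the probe set of largest interquartile range, and 0 to 1 with an array left out. Srm, Rrp12 or both were among them, beside Odc1, under the first 6 of these settings. Without LSK replicate 2 the called member was Rrp12. With the probe set of largest interquartile range Mycn, Noc4l and Rrp1b were called, Odc1 was not, and the members' median was 0.52. The Odc1 adjusted p ran from 0.0051 to 0.114. All genes called numbered 917 with array weights and 176 to 643 with an array left out. Under the other settings just named they stayed within 1.5 times of 424, the count of the main fit. Median centring moved the median of all genes from 0.02 to 0.13. For Ezh2 KO against WT LICs no member was called under any alternative, while all genes called numbered 32 above the 40th percentile, 119 with array weights, 35 with the compared groups alone and 25 to 146 with an array left out. The count of 5 members with higher, separate arrays was 1 after median centring or cyclic loess, 2 after quantile normalization, and 1 or 3 with the other choices of probe set. For Ezh2 KO LICs against LSK cells, 5 members were called with a trended robust prior (Myc, Odc1, Nolc1, Npm1 and Rrp1b), 1 with the mean of probe sets and 1 with the probe set of largest interquartile range (Mycn both times), and all genes called numbered 118 to 643 with an array left out. Under the settings with called members, all genes called stayed within 1.5 times of 430, the count of the main fit. Of 648 counts for the other gene lists, 123 moved by over 1.5 times.

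With the replicate number as a block, all genes called numbered 252, 36 and 147 for WT LICs against LSK cells, Ezh2 KO against WT LICs and Ezh2 KO LICs against LSK cells, and 0 members were called in the first (Odc1 adjusted p 0.0838). The numbers do not pair the arrays: same-numbered deviations correlated at -0.05, -0.02 and -0.02, at 0.14 and 0.02, and at -0.02 and -0.01 in these comparisons.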
